A study of Oncorhynchus mykiss with 6 samples.

Results

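The miR-130, miR-301 and miR-454 family of microRNAs (miRNAs) was examined in the liver of rainbow trout (Oncorhynchus mykiss). Its members are the 6 of 2730 listed names whose stem is exactly miR-130, miR-301 or miR-454: an x and a y name of each. Of all names, 522 belong to known families and the others are predicted miRNAs. All 6 members were counted in every library, with 63 to 13896 reads, and all passed the filter on low counts.

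Small RNAs were counted in 6 liver libraries, 3 from control fish kept at 18 °C and 3 from heat-stressed fish. Both groups are labelled as 150 days old, and no strain or genotype is given. Fish of 200 g on average spent 7 days at 18 °C and another 7 days in the experimental tanks, and the heat group was then warmed by 1 °C every 24 h to 24 °C. The protocol speaks of 12 female fish, without saying which or how many went into each library or whether fish were pooled, and p-values therefore refer to the spread of the libraries, part of which may be technical.

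Total counts ran from 9267658 to 12778484 per library. Both names of the hepatocyte miRNA miR-122 were counted in all 6 libraries. They summed to 148880 to 321650 CPM (counts scaled to 1000000 reads per library), normalized with the factors given next. Control replicate 2 and heat replicate 1 stood apart from the other libraries. Their normalization factors, computed by the trimmed mean of M-values (TMM), were 1.25 and 1.24, against 0.870 to 0.916 elsewhere. They held the most names with reads (2077 and 2157, against 1579 to 1701). They also had the largest total counts (11894384 and 12778484), and the part of depth in the number of names was not tested. All CPM values are normalized with the TMM factors unless the library total is named as the scale.

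A miRNA is cut from a hairpin RNA, and either arm of the hairpin can be loaded into an Argonaute protein. The seed, bases 2 to 8 of the loaded strand, pairs with matching sites in messenger RNAs and lowers their output. miR-130, miR-301 and miR-454 are grouped by a common seed. In human cells miR-130 is known to repress PPARG, a nuclear receptor that drives fat storage, miR-130a is known for its part in the growth of blood vessels, and miR-301a is known to repress NKRF, an inhibitor of NF-kB signalling. The human miR-301a and miR-454 hairpins lie within one intron of SKA2. None of these relations was measured here.

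The sequences show which of the deposited names carry the family seed. The y names are given first and the x names after them, from the 5′ to the 3′ end, with bases 2 to 8 in capitals.
miR-130-y: cAGTGCAAtattaaaagggca
miR-301-y: cAGTGCAAtagtattgtcatagc
miR-454-y: tAGTGCAAtattgcttatagggt
miR-130-x: aCTCTTTCcctgttgcactact
miR-301-x: gCTCTGACttcattgcactact
miR-454-x: aCCCTATCaatattgcctctgc

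All 3 y names carried the seed AGTGCAA, and no other known name did. Beyond the seed the y names differed. miR-130-y and miR-454-y had 11 of 21 bases in common, all in a single run, miR-130-y and miR-301-y 13 of 21, and miR-301-y and miR-454-y 13 of 23. Each x name had a seed of its own. The files do not define the suffixes x and y, and they are called arms here. miR-130-x and miR-301-x both held TTGCACT, the reverse complement of the family seed, from base 13 on with 3 bases after it, whereas miR-454-x did not hold it. This motif, searched on the listed strand only, was present in 15 of the 1685 distinct sequences in the files (0.89%).

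Another 2 of those 15 are miR-92-y and miR-25-y, well-known abundant miRNAs with a common seed that starts 1 base before the motif. The motif therefore begins at base 3 of both.
miR-92-y: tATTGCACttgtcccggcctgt
miR-25-y: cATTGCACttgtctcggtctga

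A predicted hairpin bears on how reads of miR-301 are to be read. It was singled out after its values were seen. It is listed under 2 names with the same sequences and counts, and its 3p sequence holds all 23 bases of miR-301-y and 3 more. Its 5p sequence matches miR-301-x at 17 of 22 bases (77.3%), the last 10 of them in a row. In the 3p sequence the miR-301-y part is in capitals, and in the 5p sequence bases 2 to 8.
Predicted 3p: CAGTGCAATAGTATTGTCATAGCatt
Predicted 5p: gCTTTGACaatgttgcactact
The longer 3p form was nearly absent, with 2 reads in control replicate 2, 4 in heat replicate 1 and 0 elsewhere. The 5p form had read numbers in the range of miR-301-x, with 252, 338 and 226 reads in the 18 °C libraries (replicates 1 to 3 in order, here and below) and 464, 118 and 166 at 24 °C. These were 0.980 to 1.73 times the reads of miR-301-x. Reads that start on this hairpin's 3p arm and end within miR-301-y cannot be told apart from miR-301-y itself.

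miR-130 made up most of the family. Its 2 arms held 88.6% to 92.3% of the family's reads per library, against 3.23% to 5.96% for miR-301 and 3.75% to 6.47% for miR-454. The 6 mature forms are 21 to 23 bases long, so their CPM levels are set side by side without a correction for length. How evenly the libraries recovered different sequences was not tested, and levels of different names or arms are levels in reads. Among the 249 known names tested, ordered by mean CPM, miR-130-x ranked 52 and miR-130-y 62. miR-454-y and miR-301-y were neighbours at 119 and 120, and miR-301-x and miR-454-x followed at 149 and 158. Among the seed-carrying y arms, miR-130-y gave 76.7% to 84.0% of reads.

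miR-130-x, the arm without the family seed, was the most abundant and the steadiest member. It measured 858, 888 and 974 CPM at 18 °C and 878, 827 and 739 CPM at 24 °C. The highest library was only 1.32 times the lowest in these normalized values, and the groups overlapped. In CPM of the library total the spread was wider, from 671 to 1111, with control replicate 2 and heat replicate 1 highest. The known names nearest to it in mean level were miR-140-y (869 CPM) and miR-19-y (854 CPM), whose ranges over libraries (628 to 1135 and 418 to 1356 CPM) both contained that of miR-130-x.

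miR-130-y, the seed-carrying arm, measured 536, 615 and 365 CPM at 18 °C and 539, 349 and 359 CPM at 24 °C. Control replicates 1 and 2 and heat replicate 1 were high and the other 3 libraries low, across the temperatures. Its neighbours in mean level were miR-20-x (466 CPM, range 220 to 1169), of the proliferation-linked miR-17 family, and the fish miRNA miR-731-x (443 CPM, range 343 to 587).

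miR-301-y carries the same seed at about an order of magnitude less. It measured 64.5, 59.7 and 33.1 CPM at 18 °C and 75.4, 40.6 and 46.1 CPM at 24 °C. The groups overlapped, with the lowest library in control and the highest in heat. miR-454-y measured 37.8, 98.1 and 44.8 CPM at 18 °C and 48.5, 42.6 and 62.8 CPM at 24 °C. Control replicate 2 was far above the other libraries, and miR-301-y and miR-454-y changed places from library to library, so their order is not set beyond the spread. The next known names around this pair were miR-1338-y (59.5 CPM, range 33.4 to 96.6) and miR-140-x (52.2 CPM, range 32.8 to 89.7).

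The minor x arms were the lowest members. miR-301-x measured 22.9, 23.2 and 13.7 CPM at 18 °C and 18.4, 9.93 and 10.3 CPM at 24 °C. Heat replicates 2 and 3 lay below every control, while heat replicate 1 lay above control replicate 3. miR-454-x measured 20.0, 11.6 and 19.8 CPM at 18 °C and 14.8, 7.82 and 12.8 CPM at 24 °C. Here control replicate 2 was the lowest control and fell below heat replicates 1 and 3, and miR-301-x and miR-454-x also overlapped with each other. Around them lay miR-98-x (18.2 CPM, range 8.06 to 25.1), of the let-7 group, and miR-1386-x (16.2 CPM, range 8.40 to 23.3) for miR-301-x, and the erythroid miR-486-x (14.8 CPM, range 1.01 to 46.3) and miR-218-x (14.4 CPM, range 10.6 to 21.4) for miR-454-x.

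**Figure D1:**
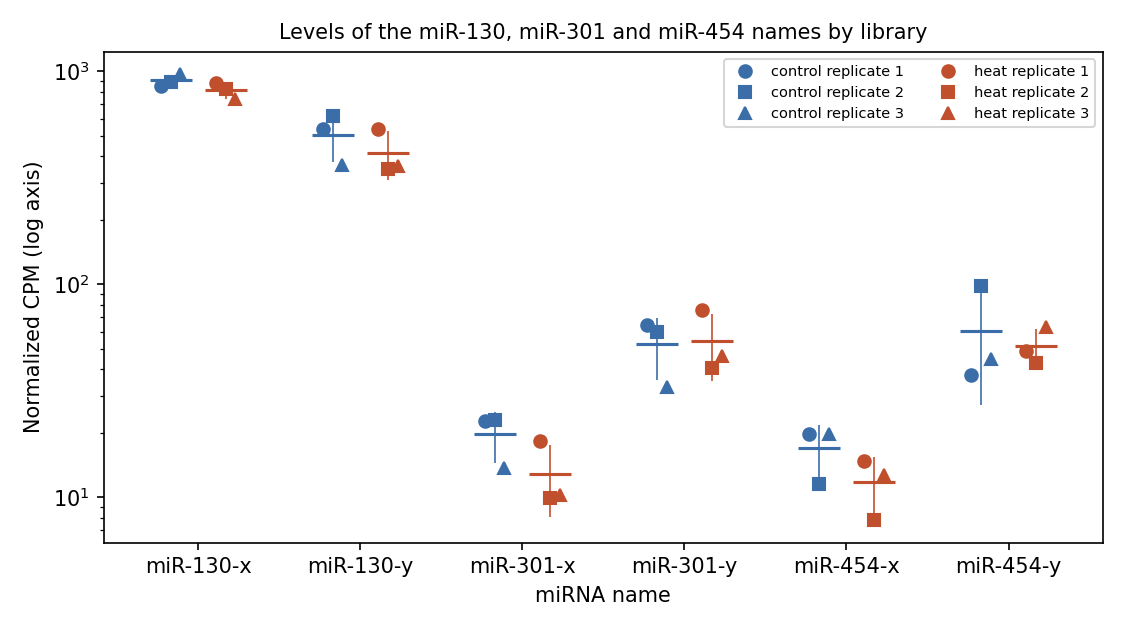
Normalized CPM (log axis) of the 6 names in each library, with control in blue and heat in orange. Symbols mark replicate numbers, horizontal bars the group mean and vertical lines 1 SD (n = 3). The groups overlap for all 6 names, and miR-130-x spans only 739 to 974 CPM.

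The first question was whether heat changed the level of any member. None passed the edgeR quasi-likelihood test, which models counts across all names, with Benjamini-Hochberg adjustment over the 651 names tested. All 6 had an adjusted p of 0.995. No member had an unadjusted p under 0.05, against 20 of the 651 names (3.07%), and edgeR called 0 of the 651 (0%). Some of the 651 names share a sequence and its counts. With each distinct sequence counted once, edgeR tested 476 names, called 0 and had 10 at an unadjusted p under 0.05. Without the count filter, edgeR called 23 of 2730 names, none of them a member, and had 126 at an unadjusted p under 0.05. DESeq2, also without the filter, called 2 of 2724 names (0.0734%), neither of them a member, and had 55 of them at an unadjusted p under 0.05 (2.02%). In none of the 6 were the CPM ranges of the groups apart, which was so for 54 of the 651 names (8.29%). In these bulk libraries fewer cells of a type and less RNA per cell cannot be told apart.

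miR-130-x averaged 907 ± 60.1 CPM in the controls and 815 ± 70.4 CPM in heat (SD, n = 3), a fitted log2 fold change of -0.15 ± 0.21 (SE). Its 95% interval in fold ran from 0.638 to 1.27, which leaves out a change of 2-fold in either direction. miR-130-y averaged 505 ± 128 and 416 ± 107 CPM (SD), with -0.28 ± 0.30 (SE) and an interval of 0.511 to 1.32 in fold. The interval of miR-301-y also stayed within 2-fold, from 0.549 to 1.94, around a log2 fold change of 0.04 ± 0.40 (SE), with means of 52.4 ± 16.9 and 54.0 ± 18.7 CPM (SD).

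The intervals of the other 3 members went past a halving, although their SEs were close to that of miR-301-y. The log2 fold change of miR-301-x was -0.63 ± 0.42 (SE), with means of 19.9 ± 5.37 CPM in control and 12.9 ± 4.78 in heat (SD) and a fold interval of 0.331 to 1.27. For miR-454-x it was -0.53 ± 0.42 (SE), from 17.1 ± 4.80 to 11.8 ± 3.62 CPM (SD), with 0.355 to 1.35 in fold. miR-454-y gave -0.23 ± 0.43 (SE), with 60.2 ± 33.0 and 51.3 ± 10.4 CPM (SD) and 0.430 to 1.69 in fold. The bound of 2-fold depended on the setting. It held in all 13 other settings for miR-130-x, in 5 of 13 for miR-130-y and in 5 of 13 for miR-301-y, where over these settings the bounds reached 0.398 and 1.68, and 0.427 and 2.46, in fold, and in none for the other 3. A halving of those 5 was therefore not excluded at this number of libraries. Nor was a doubling of miR-301-y, or of miR-454-y, where the upper bound reached 2.24 in fold over these settings.

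Fitted folds were below 1 for 5 of 6 members, beside 344 of all 651 names tested and 161 of the 249 known names. The median log2 fold change was -0.26 over the members, -0.02 over all names tested and -0.12 over known names. The 3 x arms had values of -0.63, -0.53 and -0.15, and the 3 y arms -0.28, -0.23 and 0.04. Summed before the fit, the family measured 1536, 1689 and 1456 CPM at 18 °C and 1578, 1272 and 1235 CPM at 24 °C. Heat replicates 2 and 3 were lowest and heat replicate 1 lay among the controls. The log2 fold change of the sum was -0.20 ± 0.22 (SE, edgeR adjusted p = 0.998), an interval of 0.613 to 1.24 in fold, which stayed within 2-fold in 12 of 13 other settings and reached 0.489 with library totals alone. The predicted 5p sequence had a log2 fold change of -0.26 ± 0.38 (SE, edgeR adjusted p = 0.995).

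**Figure D2:**
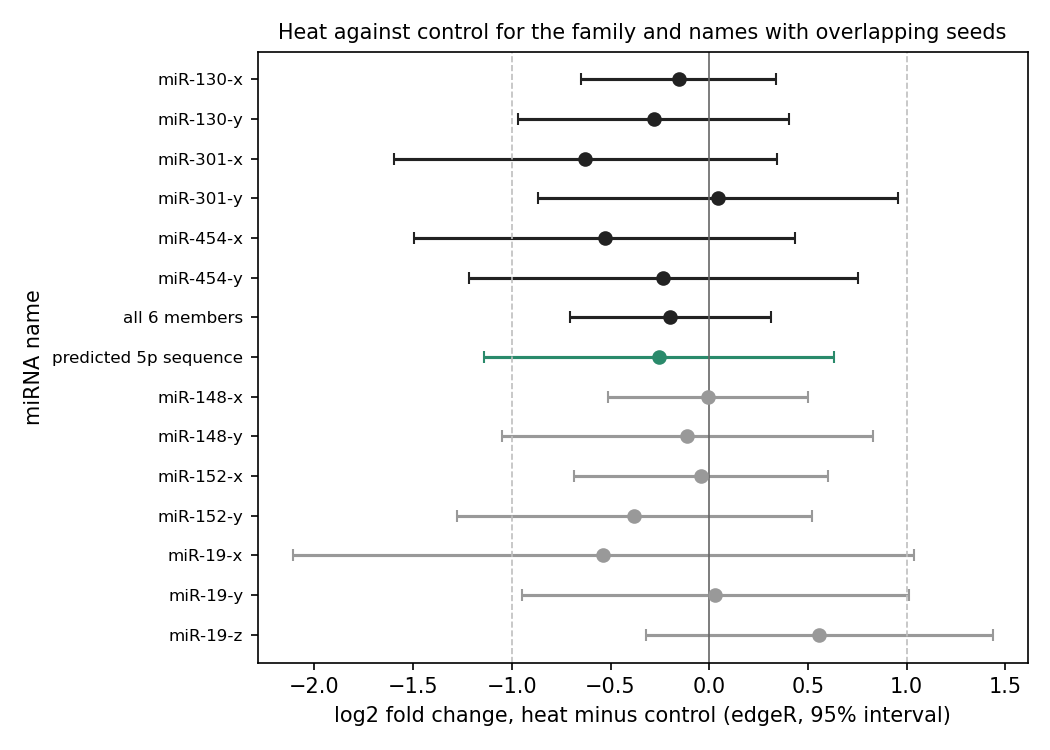
Fitted log2 fold change of heat against control with its 95% interval from edgeR, for the 6 members and their sum in black, the predicted 5p sequence in green and names with overlapping seeds in grey. Dashed lines mark 2-fold. All intervals cross 0, and in this fit those of miR-130-x, miR-130-y, miR-301-y and the sum stay within 2-fold, which for miR-130-y and miR-301-y held in only 5 of 13 other settings.

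Without scaling factors the pair of libraries that stood apart was also the highest for the family. In CPM of the library total, the 6 members together took 1409, 2121 and 1291 at 18 °C and 1950, 1111 and 1117 at 24 °C. Means were 1607 ± 449 and 1392 ± 483 CPM (SD, n = 3, two-sided exact permutation p = 0.5). Without control replicate 2 the difference between group means changed from -215 to 42.4 CPM. Without heat replicate 1 it was -493 CPM (two-sided exact permutation p = 0.2, the smallest 3 against 2 allow). With both of these libraries left out it was -236 CPM (two-sided exact permutation p = 0.333, the smallest 2 against 2 allow). In these last cases the groups did not overlap. Leaving out any other single library gave -373 to -73.9 CPM, with overlapping groups. The marker sums that follow are normalized with the TMM factors. Control replicate 2 and heat replicate 1 were lowest in the summed hepatocyte miR-122 (148880 and 187870 CPM, against 274050 to 321650 elsewhere). They were also lowest in the summed vascular and stromal names (105250 and 109210 CPM, against 164720 to 182490). In the summed pancreas list of miR-375, miR-216 and miR-217 they were highest (346 and 291 CPM, against 150 to 209). Their larger factors, 1.25 and 1.24, lower every normalized value of these 2 libraries. Of the 5 pancreas names, 3 were counted in all libraries, and miR-375-x and miR-216-y were at 0 in at least 1. The part of these differences in the family's levels was not tested.

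The direction of the seed-carrying arms of miR-301 and miR-454 rested on single libraries. Leaving out control replicate 3 turned the log2 fold change of miR-301-y to -0.16, leaving out heat replicate 1 turned it to -0.25, and for miR-454-y it was 0.31 without control replicate 2. With control replicate 2 and heat replicate 1 both left out, miR-301-y was at -0.20 and miR-454-y at 0.32. The other 4 members kept a value below 0 in all 13 other settings tried, and no member passed the threshold in any.

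**Figure D3:**
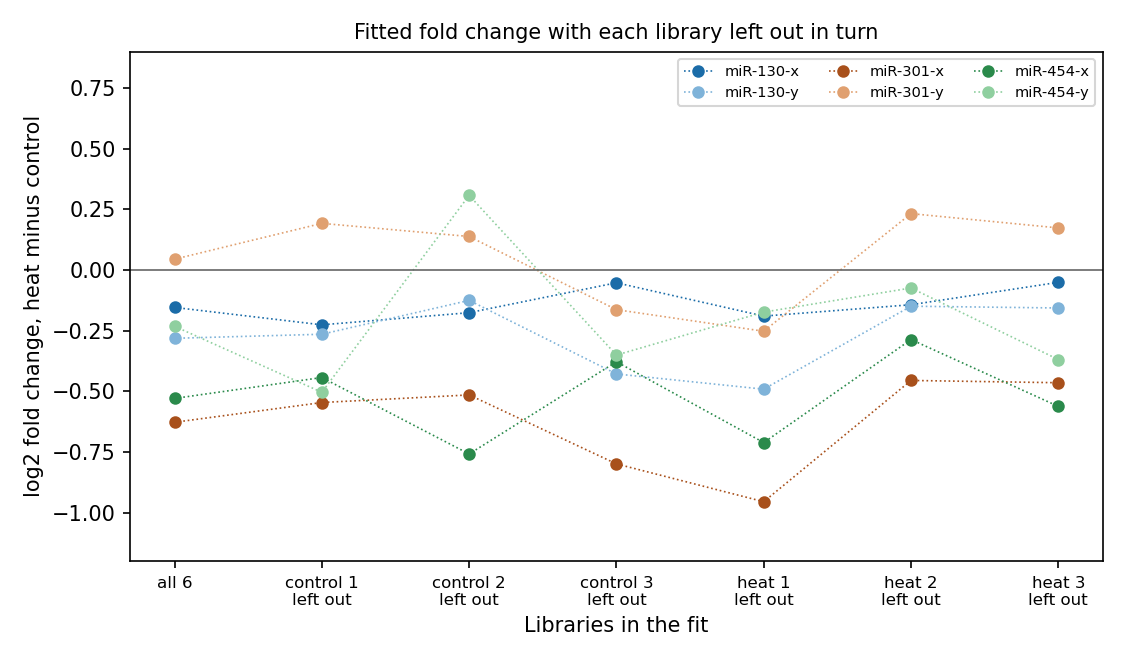
Log2 fold change of each member from edgeR with all 6 libraries and with each library left out in turn; dotted lines only join points of the same name. miR-301-x stays between -0.96 and -0.46, while miR-301-y and miR-454-y cross 0.

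The second question was whether the balance of the 2 arms differed between temperatures. The ratio of y to x reads is taken within a library, so it does not depend on depth or scaling. The share of y reads among both arms is given with an exact binomial 95% interval, limited to counting error, as PCR copies cannot be told from separate molecules without identifiers.

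For miR-301 the seed-carrying arm took a larger share in every heat library than in any control. In control replicates 1 to 3 the y arm held 73.8% (70.6% to 76.9%), 72.0% (69.4% to 74.5%) and 70.7% (66.3% to 74.8%) of 775, 1233 and 464 reads. In heat replicates 1 to 3 it held 80.4% (78.3% to 82.4%), 80.3% (76.1% to 84.1%) and 81.7% (78.1% to 84.9%) of 1485, 407 and 525 reads. The shares of the groups did not overlap, and within each group the intervals of all 3 libraries overlapped. Across the groups, the intervals of control replicate 1 (up to 76.9%) and heat replicate 2 (from 76.1%) overlapped as well.

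On average miR-301-y held 72.2% ± 1.56 at 18 °C and 80.8% ± 0.774 at 24 °C (SD, n = 3). In reads per x read this was 2.82, 2.57 and 2.41 in control and 4.10, 4.09 and 4.47 in heat. The mean log2 ratio differed by 0.70, with an SD of 0.11 in control and 0.07 in heat. The two-sided exact permutation p was 0.1, the smallest that 3 libraries against 3 allow, and 0.3 after Benjamini-Hochberg adjustment over the 3 arm ratios tested, so the difference did not pass the threshold of 0.05. With each library left out in turn it ran from 0.65 to 0.76. It was 0.71 with control replicate 2 and heat replicate 1 both left out, the libraries that stood apart.

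The predicted 5p sequence is listed opposite a 3p sequence that begins with miR-301-y, so the share was also taken with it. With its reads added to miR-301-x, the y share was 55.7%, 56.5% and 47.5% at 18 °C and 61.3%, 62.3% and 62.1% at 24 °C. The groups still did not overlap, and the mean log2 ratio differed by 0.51 (two-sided exact permutation p = 0.1). Set against the predicted 5p sequence alone, miR-301-y gave 69.4%, 72.4% and 59.2% in control and 72.0%, 73.5% and 72.1% in heat. There the groups overlapped, and the difference in log2 ratio was 0.36 (two-sided exact permutation p = 0.3).

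miR-130 had the opposite balance, with more reads from the x arm in 6 of 6 libraries. The seed-carrying miR-130-y held 38.5%, 40.9% and 27.2% of reads of both arms at 18 °C and 38.0%, 29.7% and 32.7% at 24 °C. The lowest and the highest value were both in control. Control replicate 3 had an interval of 26.5% to 28.0% and control replicate 2 one of 40.3% to 41.6%, so libraries of one group differed far beyond counting error. On average it held 35.5% ± 7.29 at 18 °C and 33.5% ± 4.24 at 24 °C (SD, n = 3), and the log2 ratio differed by -0.12 (two-sided exact permutation p = 0.7, also 0.7 after adjustment over the 3 ratios).

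For miR-454 the y arm led in 6 of 6 libraries, with 65.4%, 89.5% and 69.3% at 18 °C and 76.6%, 84.5% and 83.1% at 24 °C. Control replicate 2 was the highest of all and the other controls were the lowest. Its average was 74.7% ± 12.9 at 18 °C and 81.4% ± 4.22 at 24 °C (SD, n = 3), a difference of 0.42 in log2 ratio (two-sided exact permutation p = 0.7, also 0.7 after adjustment). Over the 3 families together, y arms held 30.5% to 45.6% of reads, and this share did not separate the temperatures (39.2% ± 7.78 in control and 38.0% ± 4.14 in heat, SD, n = 3, two-sided exact permutation p = 1).

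**Figure D4:**
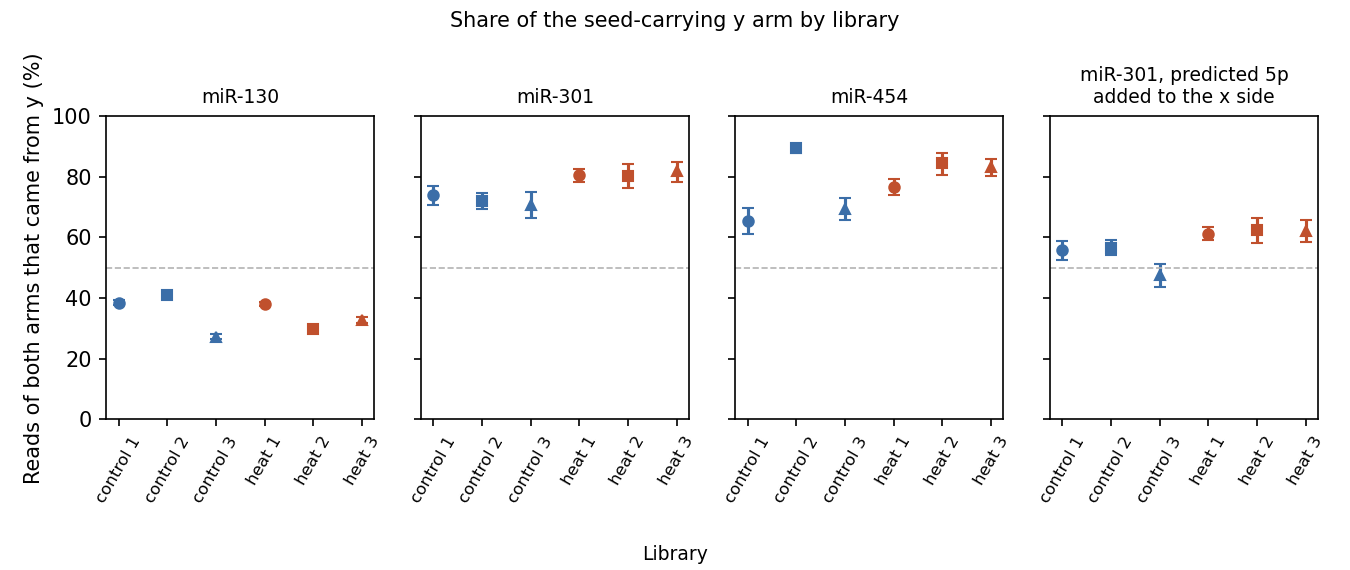
Percentage of reads of both arms that came from the y arm in each library, with exact binomial 95% intervals, control in blue and heat in orange; the dashed line marks 50%. For miR-301 the heat libraries lie at 80.3% to 81.7% and the controls at 70.7% to 73.8%. The groups stay apart when the predicted 5p sequence is added to the x side, which still holds the miR-301-x reads. Against the predicted 5p sequence alone, not drawn here, the groups overlap.

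Arm ratios of other known families give the background for miR-301. Of 73 families with both an x and a y name tested and counted in every library, 4 had groups that did not overlap (5.48%), among them 2 with a higher ratio in heat (2.74%). These 2 were miR-301 and miR-338, a miRNA known from glial cells, at a difference of 0.32 in log2. Those lower in heat were miR-139, at -0.77, and miR-106, at -0.98. Between the highest control and the lowest heat library lay a gap of 0.54 in log2 for miR-301 and of 0.06 for miR-338. By the difference of group means miR-301 stood in place 3 of 73 in the upward direction and in place 10 by absolute size. Of the 43 families whose lowest count was at least that of miR-301, 1 was separated upward (2.33%), miR-301 itself. That cut was miR-301's own lowest count, 80 reads, so miR-301 was kept by construction. The other separated families fell below it, with lowest counts of 52 for miR-338, 8 for miR-139 and 23 for miR-106. The cut therefore adds nothing on whether miR-301 stands out.

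**Figure D5:**
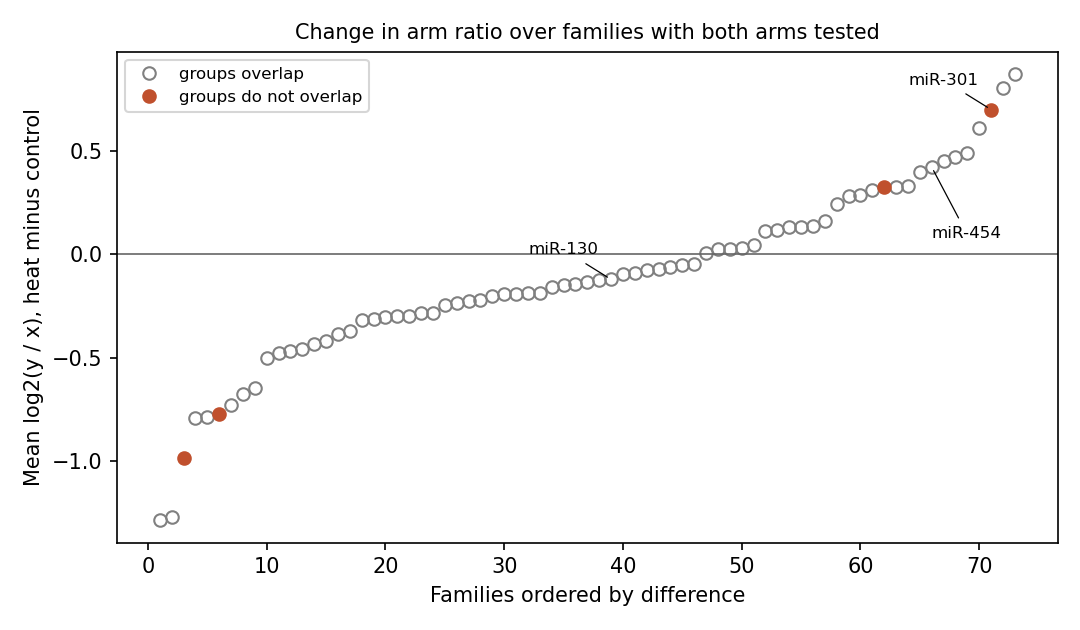
Difference in mean log2 ratio of y to x reads (heat minus control) for the 73 families with both arms tested, in order of size. Filled points mark families whose libraries do not overlap between groups, 4 in all, with miR-301 at 0.70. miR-130 (-0.12) and miR-454 (0.42) have overlapping groups.

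The summed CPM of each marker list overlapped between the temperatures. A summed level and an arm ratio are different measures, and a part of cell composition in the miR-301 ratio was not tested. Summed leukocyte names (miR-142, miR-223 and miR-150, of 7 names 5 counted in all libraries, miR-150-y and miR-150-z at 0 in at least 1) ran from 1350 to 2950 CPM in control and 949 to 2772 CPM in heat. Control replicates 1 and 2 and heat replicate 1 were high (2950, 2465 and 2772 CPM) and the other libraries low (949 to 1418 CPM). This was the same split as for miR-130-y, miR-301-x and miR-301-y, while miR-130-x and both arms of miR-454 did not have it. None of the other marker sums had this split, and a part of leukocytes in the levels of miR-130-y, miR-301-x and miR-301-y was not tested. Erythroid names (miR-144, miR-451 and miR-486, 5 of 5 counted in all) ran from 3895 to 6703 CPM in control and 4227 to 5845 CPM in heat. The 10 vascular and stromal names (miR-126, miR-143, miR-145, miR-199 and miR-214) ran from 105250 to 182490 CPM in control and 109210 to 180550 CPM in heat. The hepatocyte and pancreas sums overlapped between the temperatures too.

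Some other miRNAs have seeds that overlap the family's. They are shown because part of their seed match is the same.
miR-148-y: tCAGTGCAttacagaactttg
miR-152-y: tCAGTGCAtaacagaactttg
miR-19-y: tGTGCAAAtccatgcaaaact
miR-19-z: tTGTGCAAatctatgcaaaact
Each has 6 consecutive bases of AGTGCAA within its own bases 2 to 8. Relative to the family these stand 1 base later in miR-148-y and miR-152-y, 1 base earlier in miR-19-y and in the same place in miR-19-z. miR-148 and miR-152 form one family, abundant in liver, and miR-19 belongs to the miR-17/92 cluster. In CPM, miR-148-y and miR-152-y stood above every member in all 6 libraries. miR-148-y ran from 10584 to 29686 CPM and miR-152-y from 6084 to 18218 CPM over the 6 libraries, miR-19-y from 418 to 1356 CPM and miR-19-z from 191 to 692 CPM. All 7 names of these families passed the count filter, and none passed the edgeR test (0%, as over all names). Their log2 fold changes had a median of -0.04, and 5 of 7 were below 0, beside 344 of all 651 names tested and 161 of the 249 known names. miR-19-z had the largest value, 0.56 ± 0.38 (SE), and miR-152-y was at -0.38 ± 0.39 (SE). miR-19-y was at 0.03, miR-148-y at -0.11, and the x arms miR-148-x, miR-152-x and miR-19-x at -0.01, -0.04 and -0.54. As for miR-130, the y arms of miR-148 and miR-152 varied more over libraries than the x arms. miR-19 went the other way. Its highest library was 5.45 times the lowest for the scarce miR-19-x (0.505 to 2.76 CPM), 3.24 times for miR-19-y and 3.62 times for miR-19-z. The highest library was 2.80 times the lowest for miR-148-y and 1.27 times for miR-148-x, and 2.99 times for miR-152-y and 1.35 times for miR-152-x, beside 1.76 times for miR-130-y and 1.32 times for miR-130-x. For miR-301 and miR-454 the arms were closer, with 2.28 times for miR-301-y and 2.34 times for miR-301-x, and 2.60 times for miR-454-y and 2.55 times for miR-454-x.

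The patterns over the 6 libraries were compared by the root mean square difference of log2 CPM, with each name centred on its own mean, against 129 or 130 known names of other families with a mean log2 CPM of at least 5. This measure is a description, and names share the libraries and their scaling. miR-130-x lay closest to let-7-x (0.06), miR-25-y (0.09) and miR-192-z (0.14), beside a median of 0.38 over the names compared. miR-130-y lay closest to miR-214-x (0.10), miR-125-y (0.10) and miR-18-x (0.15), with a median of 0.42. The arms of miR-130 were farther apart from each other (0.32) than either was from these names.

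miR-301-x lay closest to miR-10014-x (0.17), and miR-130-y was the next (0.21), before miR-125-y (0.23), with a median of 0.55. miR-301-y lay closest to let-7-y (0.14), miR-125-y (0.15) and miR-101-y (0.17), with a median of 0.50, and at 0.22 from miR-130-y. The miR-301 arms were 0.36 apart. Thus miR-125-y was among the nearest 3 for miR-130-y and for both miR-301 arms.

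The miR-454 arms shared little of this pattern. miR-454-x lay closest to miR-7132-x (0.16), miR-1260-x (0.21) and miR-7550-x (0.26), with a median of 0.58. miR-454-y lay closest to miR-146-x (0.20), which is induced in inflammatory signalling, miR-93-x (0.22) and miR-221-z (0.24), with a median of 0.54. The 2 arms of miR-454 were 0.75 apart, the widest distance between any pair of members.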

How the data were processed

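The count columns, whole-number read counts per miRNA name in each library, were used as deposited by the authors. For their making, no source used here names an aligner, a database, a build or a prediction method. A protocol field that speaks of retina and of fragmented RNA does not describe a small RNA library. The smallest count above 0 was 2. No genome was used, so positions were not determined. Sequences are those of the deposited files.

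The test was edgeR 4.0.16 under R 4.3.3, after filterByExpr (minimum count 10) and TMM scaling, with the robust quasi-likelihood test over all names, adjusted by Benjamini-Hochberg at 0.05. This kept 651 names, 249 known and 402 predicted. Each SE is the absolute log2 fold change over the square root of F, and each 95% interval uses the fitted t distribution. Arm ratios and library shares were compared by two-sided exact permutation in scipy 1.17.1. The fit was repeated with relative log expression (RLE) factors from edgeR in place of TMM, with library totals alone and with no filter. It was also repeated with the DESeq2 1.42.0 Wald test, with each library left out and with a replicate block. Chosen after seeing the data were dropping both control replicate 2 and heat replicate 1, counting each distinct sequence once, and adding the predicted 5p sequence. Figures were drawn with matplotlib 3.10.9.

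The members, lists and rules were chosen with earlier results of these data known. The names given are all members, the names of miR-148, miR-152 and miR-19 past the filter, names sharing a member's seed or sequence, the 3 known names nearest to each member in pattern, its neighbours in level, and the marker lists. The predicted 5p sequence, miR-92-y, miR-25-y, miR-3590-x and the other families with separated arm ratios were named after their values were seen.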

Additional observations from a re-analysis of the deposited data

How the results depend on the processing

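The number of names called by edgeR was 0 with RLE factors, with library totals alone and with the replicate block. It was also 0 with each library left out in turn (0 to 0, and 26 to 49 names at an unadjusted p under 0.05). The same number, 0, was called with control replicate 2 and heat replicate 1 both left out and with each distinct sequence counted once. The number called was 23 of 2730 names without a count filter, with 126 at an unadjusted p under 0.05. With the DESeq2 Wald test it was 2 of 2724, and the cause was not tested. Of 78 values of the members over 13 settings, 0 passed the threshold and 5 had the opposite sign, with 0.550 as the lowest adjusted p (miR-454-x, with control replicate 2 and heat replicate 1 both left out). In that setting, chosen after seeing the data, miR-454-x had an unadjusted edgeR p of 0.0483. Its fold interval there, 0.258 to 0.992, lay wholly below 1, unlike in the main fit. With both left out the log2 fold changes of miR-301-y and miR-454-y were reversed, at -0.20 and 0.32. Over libraries left out in turn, values ran from -0.25 to 0.23 for miR-301-y and from -0.50 to 0.31 for miR-454-y. The summed family ran from -0.30 to -0.09, its share of library totals from -493 to 42.4 CPM (heat minus control), and the log2 arm ratio of miR-301 from 0.65 to 0.76.

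Equal replicate numbers did not pair the libraries: correlations of same-number deviations were 0.116, -0.22 and 0.065, where each needed 0.1. With the replicate block the summed family was at -0.20 and the miR-301 arm ratio differed by 0.70 (sign-flip exact permutation p = 0.25, the smallest 3 pairs allow). Here 0 names were called, with 33 at an unadjusted p under 0.05. With 3 libraries per group, the median SE of 0.41 in log2 over the members limits what could be detected, and the permutation test cannot give a p under 0.1.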

Other observations

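A name outside the family is listed with a sequence complementary to a member. miR-3590-x shares a run of 20 bases with the reverse complement of miR-130-y, and had 2 reads in control replicate 2 and 0 in each of the other 5 libraries, so it is barely represented beside the 2813 to 9151 reads of miR-130-y per library.
miR-3590-x: aatgcccttttaatattgcact
miR-130-y: cAGTGCAAtattaaaagggca

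Of the 2208 predicted names, 2 hold a whole member sequence, both of them the predicted 3p form described for miR-301. They carry the family seed, so that 5 names in all do, and no other name in the files has the sequence of a member.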
